A study of Mus musculus with 2 samples.

Results

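Intestinal-like tumour cells are pancreatic tumour cells that carried at least 10 transcript molecules of Lgals4, Rbp2, Spink4 and Dmbt1 together, counted by unique molecular identifiers (UMIs). A barcode entered the tumour gate with at least 500 genes, at most 15% mitochondrial UMIs and at least 10 UMIs of Krt8, Krt18, Krt19 and Cdkn2a together. It also had 0 UMIs of Ptprc and of Pdgfra and fewer than 50 of the acinar genes Ctrb1, Prss2, Try4 and Clps. Cycling cells, with 5 or more UMIs of Mki67 and Top2a, were set apart. The rule found 1333 cells, of 22472 barcodes in the series that passed the filter on genes and mitochondrial UMIs. Of these cells, 1065 were in the control library, among 8042 non-cycling gated tumour cells, and 268 were in the knockout library, among 4872.

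The control mice were Porcnfl/fl littermates and the knockout mice were Csf1r-Cre;Porcnfl/fl, so the floxed Porcn alleles were shared and the groups differed by the Cre transgene. All mice received KPC pancreatic cancer cells in the pancreas, and tumours were taken 21 days later. The tumours of 5 mice were pooled into 1 droplet 3′ library per genotype. The ages of the mice and the number of KPC clones are not given in the sources used here. Cre was driven by Csf1r, a gene of macrophages and other myeloid cells, so the implanted KPC cells are not those in which Porcn was to be deleted. Whether every gated tumour cell came from the implanted line was not tested. With 1 library per genotype there is no spread between mice or libraries and no test. The 95% intervals given are exact and cover counting error only, and every difference between genotypes is a difference between 2 libraries.

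The gate genes belong to the lining of the gut. Lgals4 encodes galectin-4, a sugar-binding lectin of the apical surface of intestinal cells. Rbp2 encodes the cellular retinol-binding protein of absorptive enterocytes, Spink4 a secreted protease inhibitor typical of goblet cells, and Dmbt1 a secreted scavenger receptor glycoprotein of mucosal surfaces that binds bacteria. Pancreatic ductal tumours are known to switch on programmes of the gut and stomach, and human tumours with strong expression of such genes are called classical, in contrast to basal-like tumours. Porcn encodes the enzyme that attaches a lipid to Wnt proteins, a step their secretion depends on.

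Dmbt1 (ENSMUSG00000047517) lies on chromosome 7, 131032053 to 131121630, Lgals4 (ENSMUSG00000053964) on chromosome 7, 28833854 to 28841708, Rbp2 (ENSMUSG00000032454) on chromosome 9, 98486115 to 98509781, and Spink4 (ENSMUSG00000028415) on chromosome 4, 40920052 to 40931395, all on the plus strand of GRCm38. The 250 bases before a RefSeq transcript start of Lgals4 and of Rbp2 are shown because the regulators that gut genes share bind in such windows. The Rbp2 window lies inside the gene span given above and after the start of that span. It therefore precedes a different transcript start, and its matches are not upstream of the printed gene start. They are RefSeq windows on GRCm38.p6, at chr7:28833544-28833793 and chr9:98490287-98490536, both on the plus strand, and 2 of the 4 gate genes were matched by symbol. Capitals mark every match, on either strand, to any of 4 short motifs. CAAAG is the core of sites of the nuclear receptor HNF4. GTTAAT is one arm of the sites bound by the homeobox factor HNF1. TTTATG is bound by the intestinal CDX factors. AGATAA is bound by the zinc finger factors of the GATA family.
Lgals4: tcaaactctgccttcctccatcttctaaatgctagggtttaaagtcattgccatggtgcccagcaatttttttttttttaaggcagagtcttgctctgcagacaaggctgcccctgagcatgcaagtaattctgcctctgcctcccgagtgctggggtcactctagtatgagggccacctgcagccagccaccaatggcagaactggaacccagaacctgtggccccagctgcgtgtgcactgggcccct
Rbp2: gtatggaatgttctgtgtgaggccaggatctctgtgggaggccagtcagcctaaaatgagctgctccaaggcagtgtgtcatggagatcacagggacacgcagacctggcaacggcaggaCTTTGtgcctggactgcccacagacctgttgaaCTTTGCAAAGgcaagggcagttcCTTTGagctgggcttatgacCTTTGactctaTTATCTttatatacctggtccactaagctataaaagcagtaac
The Rbp2 window held 6 matches, 5 of CAAAG and 1 of AGATAA read on the minus strand, and the Lgals4 window held 0. Of 32851 promoter windows of this length, 48.6% held CAAAG, 6.43% GTTAAT, 10.8% TTTATG and 9.99% AGATAA, and matches of different motifs could overlap. A match describes these letters and is not a shown binding site.

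Epithelial markers outside the gate were present in part. The gate itself used Krt8, Krt18, Krt19 and Cdkn2a, so their levels check nothing. Cdh1, the epithelial cadherin, was at 326 and 305 counts per 1000000 UMIs (CPM) in control and knockout. Epcam, a surface protein of most epithelia, had a UMI in 29 of the 1065 control cells (2.72%) and 6 of the 268 knockout cells (2.24%), so this usual epithelial marker was close to absent. The claudin genes Cldn4 and Cldn7 were near absent too. Cldn4 had 1 UMI in control and 0 in knockout, and Cldn7 had a UMI in 4 control and 4 knockout cells. The rest of the 7 epithelial markers were Krt7, Elf3 and Sox9. Against the other tumour cells, the log2 ratios in control and knockout were 3.84 and 3.20 for Krt7. They were 1.73 and 1.89 for Elf3, and -0.60 and -0.74 for Sox9. At least 3 UMIs of the 7 markers were found in 95.5% of control and 94.4% of knockout cells, against 83.2% and 79.6% of the others. Vim, the mesenchymal filament gene, was at 3720 and 4469 CPM. The label therefore describes gut genes in cells with mixed epithelial and mesenchymal transcripts, not an intestinal cell.

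Leukocyte, fibroblast, endothelial and acinar markers were low but not at 0, and mesothelial markers were high. The 17 leukocyte markers summed to 19.6 CPM in the control and 21.6 CPM in the knockout cells, against 37104 and 11166 CPM in a reference of 650 control and 2608 knockout leukocytes (at least 2 UMIs of Ptprc and at most 2 of the tumour keratins and Cdkn2a). All 17 had at least 1 UMI in each library's cells. The 8 fibroblast markers summed to 48.3 and 110 CPM, and 49 control and 8 knockout cells had at least 3 UMIs of them. Of the 6 endothelial markers, Tie1 was at 0 in control, and Kdr, Cldn5, Esam and Tie1 were at 0 in knockout. The 8 acinar markers summed to 29.8 and 85.3 CPM, of which Cela1, an elastase gene, gave 28.4 and 39.1 CPM, and 72 control (6.76%) and 48 knockout cells (17.9%) had at least 3 UMIs of them, against 0.817% and 5.89% of the other tumour cells. The 5 mesothelial markers summed to 371 and 291 CPM, against 236 and 169 CPM in the other tumour cells, and 73.5% and 67.9% of the intestinal-like cells had at least 3 UMIs of them, against 42.3% and 34.8% of the others. Nearly all of that sum was Msln, mesothelin, a surface protein that pancreatic cancer cells also make, at 368 and 289 CPM, and Krt5 was at 0 in both libraries' cells. The part of these markers in the results was not tested. With cells carrying at least 3 UMIs of leukocyte, fibroblast, endothelial, acinar or islet markers left out, 217 of the 330 genes called higher than in the other tumour cells and 244 of the 460 called lower kept their call. Of the 252 genes called higher in knockout, 66 kept theirs, and of the 377 called lower, 185 did.

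The libraries held 13766 and 12251 barcodes and 173934025 and 137527647 UMIs in control and knockout. The intestinal-like cells were deeper than the other gated tumour cells, with a median of 18982 against 13042 UMIs in control and 19095.5 against 14983 in knockout. Scrublet, a doublet caller, marked 148 control (1.27%) and 341 knockout barcodes (3.16%), among them 4 and 0 of the intestinal-like cells, and none was removed in the main analysis. The libraries shared 46 barcode sequences, 0 of them among these cells. Porcn itself was at 11 CPM in the control and 5.83 CPM in the knockout intestinal-like cells, and at 7.01 and 5.45 CPM in the other tumour cells. In the leukocyte reference Porcn was at 1.35 and 0.606 CPM, too low to check the genotype, and the deleted exons are not given in the sources used here, so 3′ counts may lie outside them.

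The first comparison asked how common these cells were in each library. The 4 gate genes were chosen with earlier results of these data known. All 4 were lower in knockout over the non-cycling tumour cells as a whole. The lower knockout share is thus not independent of the choice of genes, and the cycling and thinned counts below use the same genes. Intestinal-like cells made up 13.2% of the non-cycling gated tumour cells of the control library, with an interval of 12.5 to 14.0, and 5.50% of those of the knockout library (4.88 to 6.18). The knockout share was 0.415 times the control share (0.362 to 0.475). Among cycling tumour cells, 84 of 486 (17.3%, 14.0 to 20.9) in control and 31 of 349 (8.88%, 6.12 to 12.4) in knockout passed the same count of gate genes, so the order of the libraries was the same there. After every cell was thinned to 5000 UMIs and gated at 4, 916 of 7704 control and 244 of 4723 knockout cells qualified, and the ratio was 0.435. As a share of all cells that passed the filter the values were 9.13% and 2.48%, a ratio of 0.272. Gated tumour cells were 8528 of 11664 filtered barcodes in control and 5221 of 10808 in knockout.

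**Figure D1:**
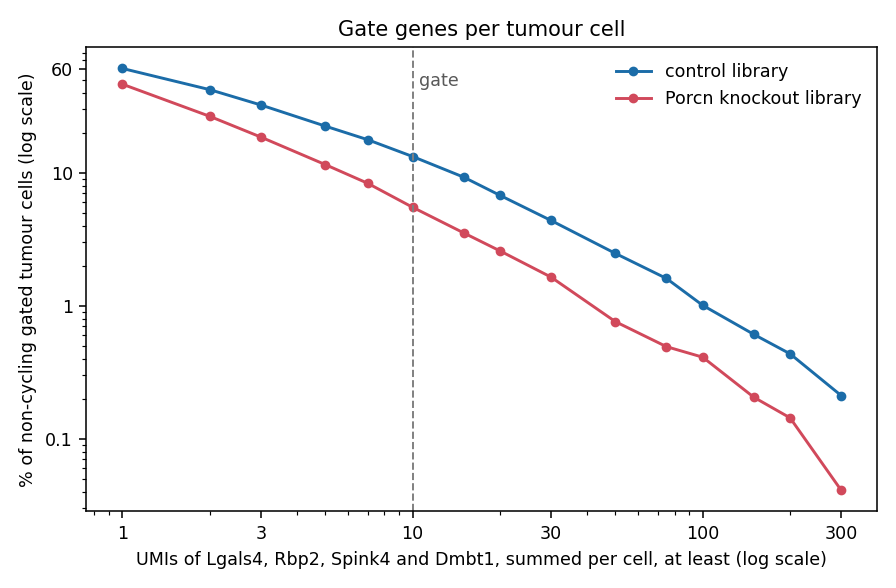
The share of non-cycling gated tumour cells (vertical axis, percent, log scale) with at least a given number of UMIs of the 4 gate genes together (horizontal axis, log scale), by library. The control curve lies above the knockout curve at every count shown, and the dashed line marks the gate at 10 UMIs.

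The gate cut through a continuous distribution. In control 3153 non-cycling tumour cells (39.2%) had 0 UMIs of the 4 genes and in knockout 2617 (53.7%). Just below the gate, 217 control and 76 knockout cells had 8 or 9 UMIs, and just above it 163 and 41 had 10 or 11. Within the gate the median was 20 UMIs in control and 18 in knockout, and the highest cells had 1045 and 562. A cell had 50 or more in 199 control cases (18.7%) and 37 knockout cases (13.8%). The richest 10% of the cells held 49% of the gate genes' UMIs in control and 46.0% in knockout.

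The values of the gate genes follow from the rule and are given as a description. Lgals4 was at 475 CPM in the control and 423 CPM in the knockout intestinal-like cells, and at 15.5 and 8.66 CPM in the other tumour cells. Some mouse strains carry Lgals6, a near-identical copy, and the strain of the line is not given in the sources used here, so the Lgals4 count is uncertain to that extent. Rbp2 was at 592 and 560 CPM, against 37.7 and 28.7 CPM in the others. Spink4 was at 520 and 419 CPM, against 37.5 and 21.4 CPM. Dmbt1 was at 376 and 198 CPM, against 11.2 and 3.27 CPM. Of the 4 genes, Dmbt1 differed most between the libraries' intestinal-like cells, and in knockout 38.2% of its UMIs came from 5 cells.

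**Figure D2:**
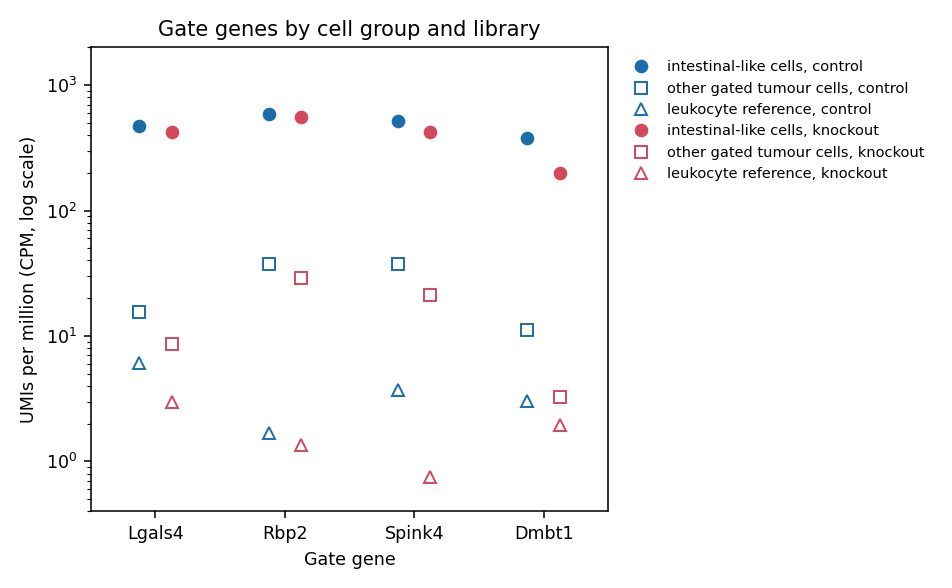
Level of each gate gene in CPM (vertical axis, log scale) in intestinal-like cells (filled circles), other gated tumour cells (squares) and the leukocyte reference (triangles), by library. The leukocyte values show how much of each transcript was found in cells that should lack it, at most 6.07 CPM.

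No single gate gene was present in every cell. Lgals4 had a UMI in 75.8% of control and 71.6% of knockout intestinal-like cells, Rbp2 in 87.5% and 89.9%, Spink4 in 89.4% and 85.1%, and Dmbt1 in 45.7% and 33.2%. With each cell thinned to 2000 UMIs, Dmbt1 was seen in 22.9% and 15.7% of these cells, in 2.40% and 0.637% of the other tumour cells and in 0.225% and 0.522% of the leukocyte reference, so the knockout value in the other tumour cells was near background. The leukocyte reference had median depths of 2958 and 3700 UMIs. All 4 genes were found together in 292 control (27.4%) and 53 knockout cells (19.8%), and 1 gene alone in 36 and 20.

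The genes were seen in the same cells more often than their separate frequencies give. Over all non-cycling tumour cells thinned to 5000 UMIs, Rbp2 was found in 51.3% of control cells with Lgals4 and 17.7% of those without it, and in knockout in 46.5% and 14.2%. Dmbt1 was found in 22.3% of control cells with Lgals4 and 5.89% of those without, and in knockout in 13.4% and 1.68%. For all 6 pairs in both libraries the shared cells exceeded the product of the separate shares, by 1.82 to 5.45 times. All 4 genes were lower in knockout over the non-cycling tumour cells as a whole: Lgals4 was at 99.3 and 38.5 CPM in control and knockout, Rbp2 at 139 and 67.0, Spink4 at 125 and 50, and Dmbt1 at 77.8 and 17.3. Between 75.6% and 88.2% of each gene's control UMIs, and between 60.2% and 82.4% of its knockout UMIs, lay in the intestinal-like cells.

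The next comparison asked which other genes accompanied the gate genes, with UMIs summed over the intestinal-like cells and over the other non-cycling gated tumour cells of the same library. Of 14915 genes with at least 20 UMIs over both kinds of cell in each library, 330 (2.21%) were at least 2 times higher in the intestinal-like cells in both libraries and 460 (3.08%) at least 2 times lower. Those shares are the background for the list counts that follow. The median log2 ratio over all genes was -0.08 in control and -0.02 in knockout. A log2 ratio here has a pseudocount of 1 UMI. The gene lists and members were chosen with earlier results of these data in view, so a list is described by its counts and its median only.

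Part of the absorptive enterocyte list was higher, and its hallmark genes were nearly absent. Of 25 genes, 11 could be compared, 5 were higher in both libraries and 1 was lower, and the median log2 ratio was 0.98 in control and 1.69 in knockout, with a range of 0.73 to 1.63 and 1.24 to 2.60 over the 12 alternatives. Krt20, a keratin of mature gut surface cells, was at 19.3 CPM against 1.10 in control and 35.1 against 0.685 in knockout, where 5 cells held 57.3% of its UMIs. Phgr1, a small protein gene of the gut epithelium, was at 48.3 against 0.495 CPM and 39.5 against 0.375 CPM, and was seen in 9.95% and 10.8% of the cells. Apoa1, an apolipoprotein of gut and liver, was at 28.6 against 11.9 CPM and 47.1 against 8.29 CPM. Fabp1, Apoa4 and Fabp6, carriers of fatty acids, lipids and bile acids in enterocytes, had 0 UMIs in the intestinal-like cells of either library, which allows up to 0.128 CPM in control and 0.5 CPM in knockout. In all, 16 of the 25 genes had fewer than 10 UMIs over these cells in both libraries together.

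Genes that build the brush border, the carpet of microvilli on gut cells, were higher in part. Of 13 compared, 7 were higher and 0 lower, with a median of 1.04 and 1.53. The knockout median was the less stable value, at 0.56 without cells carrying other types' markers and from 0.32 to 1.58 over the 12 alternatives. Vil1, the actin bundler villin, was at 17.6 against 4.19 CPM in control (log2 ratio 2.07, 1.88 to 2.27) and 22.0 against 4.64 CPM in knockout (2.25, 1.94 to 2.54). Pls1, which bundles actin in microvilli, was at 67.2 against 32.6 CPM and 86.8 against 30.2 CPM. Eps8l3, of the same microvillus machinery, was at 6.91 against 0.238 CPM and 5.16 against 0.103 CPM. Ezr, the ezrin gene that ties membrane to actin, hardly differed, at 620 against 586 CPM and 664 against 576 CPM.

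Goblet cell and secretory genes split in the same way. Of 13 compared, 6 were higher and 0 lower, with a median of 0.82 and 1.17. Bcas1 was at 65.4 against 23.6 CPM in control and 80.1 against 18.7 CPM in knockout. Muc4, a membrane mucin, was at 10.7 against 0.457 CPM and 7.16 CPM against 0.0129 CPM. Agr2, a disulphide isomerase needed for mucin folding, was at 39.5 against 1.29 CPM and 43.8 against 0.220 CPM, but was seen in 2.72% of the control cells, and 5 cells held 82.6% of its control and 99.2% of its knockout UMIs. Muc2, the main intestinal gel mucin, was at 0.0853 and 0.5 CPM, and Atoh1, the factor that sets the secretory lineage, had 0 UMIs.

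The antimicrobial genes rested on a handful of cells. Of 8 compared in this list, 4 were higher and 1 lower. Reg1, Reg3b and Reg3g encode secreted lectins of injured pancreas and gut. Reg1 was at 72.3 against 1.52 CPM in control and 411 against 3.80 CPM in knockout, Reg3b at 26.5 against 0.476 CPM and 225 against 0.427 CPM, and Reg3g at 19.9 against 0.819 CPM and 15.2 against 0.233 CPM. In control the 5 cells richest in these lectins held 82.8% of the Reg1 UMIs, and in knockout the 5 richest held 99.2%. Without them Reg1 was at 12.5 CPM in control and 3.43 CPM in knockout. The same 5 knockout cells held 98.2% of the Epcam, 94.9% of the Tff2, 99.4% of the Gkn3 and all of the Cftr UMIs, 0 UMIs of Muc5ac, and Cdkn2a at 167 CPM against 326 CPM in the rest. The 5 control cells held 2.40% of the Epcam and 12.2% of the Tff2 UMIs, so the cells richest in these lectins differed in content between the libraries. The Paneth genes Defa24, Defa21, Mptx1 and Mptx2 had 0 UMIs in both libraries' cells.

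Of 18 transcription factors of the gut compared, 3 were higher, Elf3, Ehf and Hnf4g, and 2 were lower, Prdm1 and Nr5a2, and the median was 0.06 and 0.24. Elf3, an epithelial ETS factor, was at 55.1 against 16.6 CPM in control (log2 ratio 1.73, 1.62 to 1.83) and 35.3 against 9.54 CPM in knockout (1.89, 1.66 to 2.11). Ehf, its relative, was at 33.0 against 6.74 CPM and 21.2 against 4.41 CPM. Hnf4g was at 1.75 against 0.628 CPM and 2.66 against 0.595 CPM, with 43.9% and 93.8% of its UMIs in 5 cells. Prdm1 and Nr5a2 were near or under the floor of 3 counts in the intestinal-like cells, at 0.0853 and 0.128 CPM in control. Hnf4a, a master regulator of enterocytes, differed little, at 56.2 against 51.2 CPM and 46.8 against 37.9 CPM. Gata6 was at 129 against 137 CPM and 152 against 128 CPM. Cdx2, the factor that specifies intestine, was at 0.0853 and 0.167 CPM, and Cdx1 had 0 UMIs, both near or under the floor of 3 counts.

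Stomach mucous genes were higher in large part. Of 13 compared, 9 were higher in both libraries and 0 lower, and the median log2 ratio was 1.72 in control and 3.24 in knockout, the latter 2.10 without cells carrying other types' markers. Muc5ac, the gel mucin of the stomach surface, was at 1075 against 341 CPM in control and 2052 against 321 CPM in knockout. It had a UMI in 62.0% of the control and 77.6% of the knockout cells, and after thinning to 2000 UMIs in 39.9% and 61.6%, against 14.6% and 13.6% of the other tumour cells and 2.70% and 2.05% of the leukocyte reference. Gkn2, a gastrokine secreted by pit cells, was at 212 against 39.0 CPM and 380 against 40.4 CPM. Tff1, a trefoil peptide of the stomach, was at 80.1 against 7.29 CPM and 129 against 10.2 CPM, with a UMI in 6.76% and 4.85% of the cells. Tff1, Tff2, Gkn1 and Gkn3 had 91.1% or more of their knockout UMIs in 5 cells, and Gkn2 had 57.2%, so their ratios describe few cells. The 21-gene classical subtype list, which shares several of these genes, had 9 of 13 higher and 0 lower, with a median of 1.95 and 3.05. For basal-like genes 2 of 12 were higher and 2 lower, with a median of -0.03 and 0.48, the latter -0.73 without cells carrying other types' markers.

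By the naming rule, the genes highest in the intestinal-like cells of both libraries were led by Sult1c2, a sulphotransferase, at 43.6 against 1.02 CPM in control (log2 ratio 5.41, 5.13 to 5.72) and 27.8 against 0.478 CPM in knockout (5.83, 5.34 to 6.42). Oit1, a secreted protein gene also known as Fam3d, followed at 22.4 against 0.552 CPM and 16.5 against 0.246 CPM. These genes marked a minority, since Sult1c2 had a UMI in 16.8% of the control and 14.9% of the knockout cells. Gsta4, a glutathione transferase that clears lipid peroxidation products, was the widespread exception, at 569 against 124 CPM and 685 against 86.6 CPM and with a UMI in 90.8% and 91.4% of the cells. Its sister gene Gsta1, which has near-identical copies and so an uncertain count, was at 56.2 against 3.62 CPM and 74.8 against 3.61 CPM.

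Several of the other named genes belong to apical membranes and secretion. Prom1, the prominin of membrane protrusions, was at 111 against 13.7 CPM in control and 42.6 against 5.86 CPM in knockout. Tmprss2, an apical serine protease, was at 50.5 against 8.82 CPM and 34.5 against 4.07 CPM. Sptssb, a subunit of the enzyme that starts sphingolipid synthesis, was at 177 against 31.2 CPM and 184 against 21.2 CPM. Lrrc26, a potassium channel subunit of secretory epithelia, was at 21.2 against 1.68 CPM and 19.5 against 1.15 CPM. Crb3, an apical polarity gene, was at 18.4 against 3.5 CPM and 10.7 against 2.06 CPM. The remaining genes of the 25 were Krt20, Pglyrp1, Sgpp2, Ucp2, Sdcbp2, Paqr8, Bcam, 2200002J24Rik, Gkn2, Akr1c19, Ehf, AA986860, Vil1, Echdc2, Cbr3 and Fabp5. Of the 25, 22 had a promoter window in RefSeq, of which 10 held CAAAG, 0 GTTAAT, 1 TTTATG and 4 AGATAA. Over all windows the shares were 48.6%, 6.43%, 10.8% and 9.99%. With 22 windows these counts are small, and differences from those shares were not tested.

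**Figure D3:**
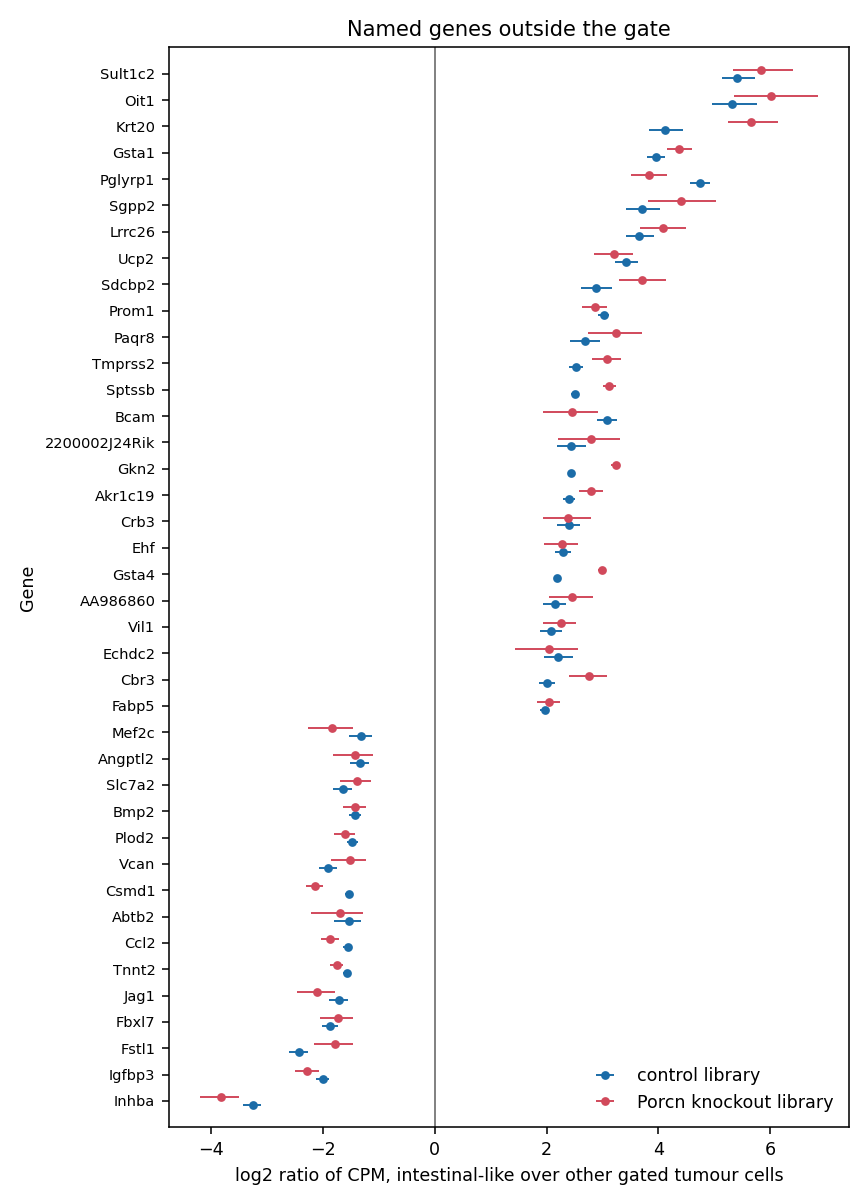
Log2 ratio of summed CPM, intestinal-like over other gated tumour cells (horizontal axis), for the 25 highest and 15 lowest genes by the naming rule (vertical axis), with 95% counting intervals, in the control and knockout libraries. Both libraries lie on the same side of 0 for each gene, as the rule requires.

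The 15 lowest genes by the same rule included several that encode secreted signals. Inhba, the activin A subunit, was at 13.5 against 130 CPM in control (log2 ratio -3.26, -3.43 to -3.10) and 11.7 against 167 CPM in knockout (-3.82, -4.20 to -3.51). Grem1, a secreted BMP antagonist outside the naming rule that was looked up after the values were seen, was at 11 against 56.4 CPM and 14.0 against 96.2 CPM. Igfbp3, a binding protein of insulin-like growth factors, was at 26.8 against 107 CPM and 30.8 against 150 CPM. Jag1, a Notch ligand, was at 13.6 against 44.8 CPM and 12.7 against 54.9 CPM, and Bmp2 at 32.9 against 88.1 CPM and 32.8 against 88.4 CPM. The chemokine gene Ccl2 was at 48.7 against 144 CPM and 53.9 against 198 CPM, with 81.2% of the knockout UMIs in 5 cells. The other low genes were Fstl1, Fbxl7, Tnnt2, Abtb2, Csmd1, Vcan, Plod2, Slc7a2, Angptl2 and Mef2c.

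Genes of the epithelial-mesenchymal transition were lower in the intestinal-like cells. Of 15 compared, 6 were at least 2 times lower and 0 higher, the median was -0.93 in control and -0.44 in knockout, and 12 of the 15 had a ratio below 0 in both libraries. Fn1, fibronectin, was at 314 against 743 CPM in control and 147 against 443 CPM in knockout. Zeb2, a repressor of epithelial genes, was at 42.4 against 88.2 CPM and 38.3 against 84.7 CPM. Tnc, tenascin-C of the matrix, was at 4.10 against 21.6 CPM and 3.83 against 10.9 CPM. Vim was lower by a small margin, at 3720 against 4160 CPM and 4469 against 5092 CPM. Epithelial junction genes had no common direction. Of 13 compared, 1 was at least 2 times higher in both libraries and 3 lower, with a median of -0.17 in control and 0.31 in knockout. The ratio was above 0 in both libraries for 5 of them and below 0 in both for 5. Dsp, the desmosome gene, was at 108 against 64.9 CPM and 91.1 against 43.5 CPM.

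Stem cell and Wnt target genes had a median near that of all genes. Of 15 compared, 2 were higher, Prom1 and Lgr4, and 1 was lower, Smoc2. The median was -0.08 and -0.00. Lgr4, a receptor for R-spondins, was at 23.8 against 11.6 CPM in control and 23.6 against 10.3 CPM in knockout. Lgr5, the intestinal stem cell receptor, was at 1.37 and 1.17 CPM, and Axin2, a Wnt feedback gene, at 1.96 and 2.16 CPM. Among 16 Wnt ligands and receptors compared, 0 were higher and 1 lower: Wnt5a was at 23 against 51.0 CPM and 16.3 against 44.9 CPM. Of 17 cell cycle genes, 13 hypoxia and glycolysis genes, 10 MHC class I genes and 7 MHC class II genes, 0 were at least 2 times apart in both libraries, and the same held for 14 retinoid genes beside Rbp2 and 7 galectin genes beside Lgals4.

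Lists were also followed across cells grouped by their gate-gene UMIs, below and above the gate. The 17 gastric genes summed to 477 CPM in control cells without gate-gene UMIs, 1562 CPM at 8 or 9 UMIs, 1557 CPM at 10 or 11 and 2737 CPM at 50 or more. In knockout the same sums were 446, 1790, 2831 and 7549 CPM. The libraries were thus close up to 8 or 9 UMIs and apart above the gate. The knockout sums at 10 or 11 and at 50 or more UMIs came from 41 and 37 cells. In knockout the 5 cells richest in Reg lectins were at 23572 CPM of this list, against 3262 CPM in the other intestinal-like cells. Their part in the highest bin was not tested. The 15 transition genes fell from 7657 to 4056 CPM in control and from 8299 to 5738 CPM in knockout between 0 and 50 or more UMIs. The bins share libraries and differ in depth, from a median of 11968 UMIs at 0 to 23753 at 50 or more in control.

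**Figure D4:**
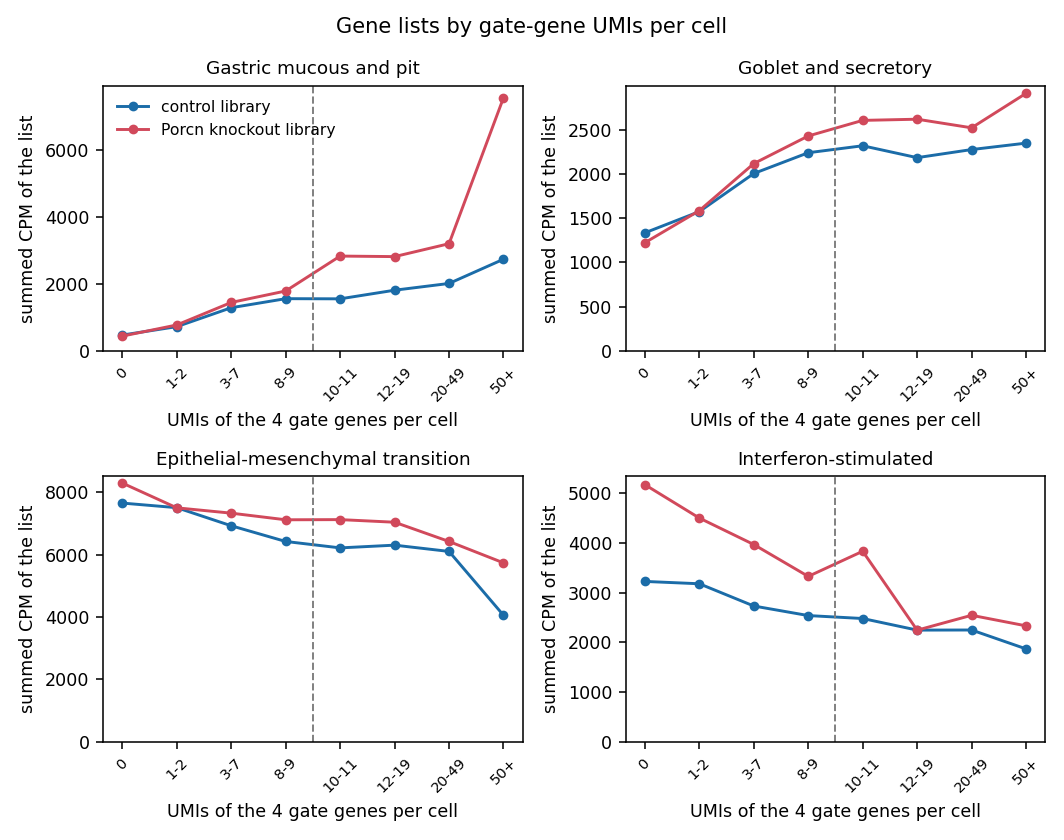
Summed CPM of 4 gene lists (vertical axes) in non-cycling gated tumour cells grouped by their UMIs of the 4 gate genes (horizontal axes), by library, with the gate as a dashed line. Gastric sums reach 2737 CPM in control and 7549 CPM in knockout at 50 or more UMIs, and interferon-stimulated sums are lowest at 50 or more in control and at 12 to 19 in knockout. The knockout values at 50 or more UMIs come from 37 cells.

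The last comparison set the knockout against the control library within the intestinal-like cells. Of 12930 genes with at least 20 UMIs over both libraries' cells, 252 (1.95%) were at least 2 times higher in knockout and 377 (2.92%) at least 2 times lower. In the other tumour cells 407 of 16618 (2.45%) were higher and 519 (3.12%) lower. The median over all genes was -0.06 in the intestinal-like and -0.10 in the other cells. The largest ratios came from few cells: of the 15 genes named as highest in knockout, 13 had over 50% of their knockout UMIs in 5 cells, and of the 15 lowest, 9 had over 50% of their control UMIs in 5 cells.

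The genes at the ends of the ranking are given by name, with few values. Gkn3, a gastrokine, was at 0.128 CPM in control and 88.6 CPM in knockout, with 99.6% of the knockout UMIs in 5 cells. The other genes highest in knockout were Wfdc18, Pnlip, Reg3b, Reg1, Mgp, Igfbp6, Lgals7, Prl2c3, Gkn1, Epcam, Dcn, Ctla2a, C9 and Gm28347. C9 and Gm28347 were the exceptions to this concentration. C9, a complement gene, was at 11.7 and 36 CPM, with 26.6% and 34.7% of its UMIs in 5 cells. The genes lowest in knockout were Slpi, Tagln, Acta2, Ighm, D630011A20Rik, Lcn2, Rgs5, Jchain, Robo2, Igkc, Tff3, Nos2, 4930500H12Rik, Fgfr3 and Pf4. They include immunoglobulin genes (Ighm, Igkc, Jchain) and contractile genes (Tagln, Acta2), and for Igkc 95.6% of the control UMIs were in 5 cells.

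A second rule, added after these values were seen, kept the 8728 genes that at least 10% of the intestinal-like cells of each library carried, that had at least 100 UMIs, and that had under 25% of their UMIs in 5 cells. Muc5ac stood among the highest. It was 0.93 higher on the log2 scale in knockout (0.90 to 0.96), against -0.09 in the other tumour cells. The median cell had 2 Muc5ac UMIs in control and 21.5 in knockout. At least 10 UMIs were found in 36.2% of control (33.4 to 39.2) and 62.7% of knockout intestinal-like cells (56.6 to 68.5), and in 9.96% and 9.95% of the other tumour cells. Without the 5 cells richest in Reg lectins Muc5ac was at 1081 and 2113 CPM. The ratio between libraries was near 2 in the intestinal-like cells and near 1 in the rest, a difference that was not tested.

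The 12 highest genes by that rule were C130026I21Rik, Bace2, Slurp1, AY036118, Muc5ac, H2-DMb2, Phf11b, Fut2, Dab2, Cxcl17, H2-Q7 and Gbp10. Several of them were higher in knockout in the other tumour cells as well. C130026I21Rik, the first, had a log2 ratio of 1.51 against 1 in the other cells, Phf11b 1.14 against 0.87, Gbp10 1.10 against 0.75 and AY036118 0.95 against 0.76. Dab2 had 0.93 against 0.29 and H2-Q7 0.85 against 0.46. Slurp1, Fut2, Cxcl17 and Bace2 are given in full, chosen after their values were seen. Slurp1, a secreted Ly6-type peptide, was at 585 CPM in control and 1153 CPM in knockout (log2 ratio 0.98, against 0.05 in the other tumour cells). Fut2, which adds the fucose of secreted mucins, was at 50.6 and 97.2 CPM (0.94, against 0.27). Cxcl17, a mucosal chemokine, was at 23.9 and 47.0 CPM (0.98, against 0.20). Bace2, a protease, was at 47.7 and 104 CPM (1.12, against 0.15). Lgals2, galectin-2, which is not among the 12, was at 1620 and 2392 CPM (0.56, against 0.05). Of the whole gastric list, 7 of 14 genes were at least 2 times higher in knockout and 0 lower, with a median of 1 in the intestinal-like and -0.21 in the other cells. That median was -0.22 when cells with at least 3 UMIs of leukocyte, fibroblast, endothelial, acinar or islet markers were left out (800 control and 164 knockout cells remained), while Muc5ac was then 0.83 higher. The list sum without the 5 cells richest in Reg lectins was 2037 CPM in control and 3262 CPM in knockout.

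In the main analysis the intestinal lists had medians nearer 0 than the gastric list. The enterocyte list had 0 of 8 genes higher and 0 lower, with a median of 0.18 against -0.45 in the other tumour cells. The brush border list had 0 of 14 higher and 1 lower, with a median of -0.07 against -0.18. The goblet list had 1 of 13 higher and 1 lower, with a median of -0.15 against -0.34. Without cells carrying other types' markers the medians were 0.54 for the enterocyte, 0.05 for the brush border and 0.04 for the goblet list. The gastric list was then at -0.22, so the enterocyte list was the one further from 0. Differences between these lists and the gastric list were not tested. Vil1 was at 17.6 and 22.0 CPM in control and knockout and Gsta4 at 569 and 685 CPM. Prom1 was lower in knockout, at 111 and 42.6 CPM (log2 ratio -1.38, -1.57 to -1.20), as it was in the other tumour cells (-1.22).

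Interferon-stimulated genes differed between the libraries in the other tumour cells more than in the intestinal-like cells. All 15 of the list were lower in the intestinal-like than in the other cells of both libraries, with a median of -0.50 in control and -0.98 in knockout, and 2 were at least 2 times lower in both, Rsad2 and Ifi44. Ifit3, an antiviral effector, was at 207 and 256 CPM in the intestinal-like cells of control and knockout (log2 ratio 0.30, 0.22 to 0.39) and at 373 and 773 CPM in the other cells (1.05, 1.03 to 1.07). Over the 10 alternatives the Ifit3 ratio in the intestinal-like cells ran from -0.16 to 0.67. Ifit1 ran from -0.67 to 0.49 and Rsad2 from -0.83 to 0.46, so the signs of these genes were not stable. The list median stayed at 0.21 to 0.46. Isg15, a ubiquitin-like modifier, was at 214 and 148 CPM in the intestinal-like cells and at 358 and 425 CPM in the others. Bst2, tetherin, was at 469 and 479 CPM and at 590 and 923 CPM. The knockout over control ratio was smaller in the intestinal-like cells for 13 of the 15 genes, with Gbp2 among the exceptions, and the medians were 0.29 and 0.65. For Rsad2 52.4% of the control and 54.0% of the knockout UMIs in the intestinal-like cells lay in 5 cells.

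MHC class II genes showed the other order. All 7 of the list were higher in knockout in the intestinal-like cells, none of these 7 by 2 times, with a median of 0.60 against 0.35 in the other cells. H2-Aa was at 448 and 752 CPM in control and knockout (log2 ratio 0.75, 0.70 to 0.80) and at 408 and 545 CPM in the others (0.42, 0.40 to 0.44). Cd74, the invariant chain, was at 1746 and 2519 CPM and at 1446 and 1722 CPM. H2-DMb2, a class II gene outside the list, was higher by more, at 8.62 and 19.8 CPM in the intestinal-like cells and at 7.48 and 12.9 CPM in the others. Ciita, the factor that switches these genes on, was at 26.2 and 39.6 CPM and at 29.8 and 33.4 CPM. The leukocyte reference held H2-Aa at 2175 and 1687 CPM, and the 17 leukocyte markers summed to 19.6 and 21.6 CPM in the intestinal-like cells. The part of leukocyte RNA in the difference was not tested.

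The 13 genes that respond to tissue dissociation, such as immediate early genes, also differed in order between the cell kinds. Their median knockout over control log2 ratio was -0.21 in the intestinal-like and 0.39 in the other tumour cells, and all 13 ratios were smaller in the intestinal-like cells. For 17 cell cycle genes the medians were -0.34 and -0.03, with 15 of 17 smaller. Their part in the other differences was not tested.

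**Figure D5:**
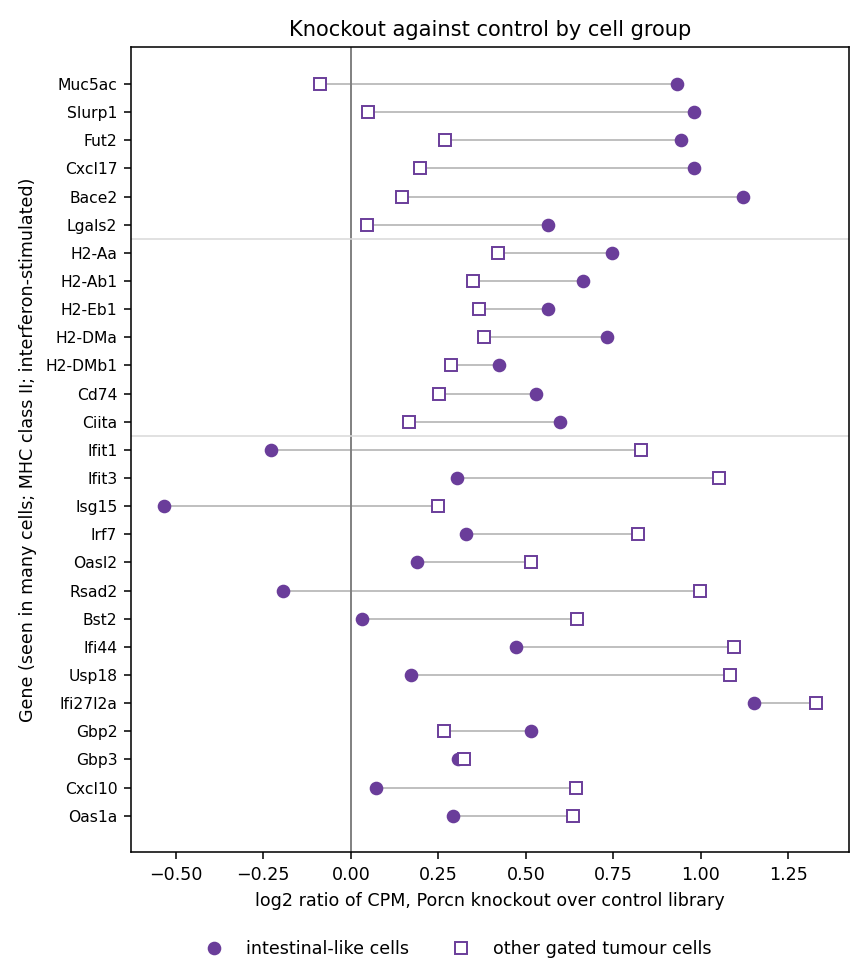
Log2 ratio of CPM, knockout over control library (horizontal axis), in intestinal-like cells (filled circles) and other gated tumour cells (squares), for 6 genes seen in many cells, 7 MHC class II genes and 14 of the interferon-stimulated genes (vertical axis). The circles lie to the right of the squares for the first 2 groups and to the left for 13 of the 14 interferon-stimulated genes shown, Gbp2 being the exception. The 6 genes of the first group were picked after their values were seen, so their order is a description only.

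Among genes seen in many intestinal-like cells, the lowest in knockout were led by C3 and Nudt4. C3, the central complement component, was at 126 CPM in control and 36.1 CPM in knockout (log2 ratio -1.79, -2.00 to -1.60), and at 108 and 50.6 CPM in the other tumour cells. Spp1, osteopontin, was at 3731 and 1903 CPM, and at 3867 and 2129 CPM in the others. Wnt4, a secreted Wnt ligand, was at 64.2 and 31.8 CPM, and at 40.5 and 13.1 CPM in the others. These genes were lower in knockout in both kinds of tumour cell, so the difference was not limited to the intestinal-like cells. Other genes of that group were Npnt, Flrt2, Bmp4, Igfbp7, Ppp1r1b, Cd14 and Scx.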

How the data were processed

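Single-cell 3′ RNA was counted in 2 pooled mouse tumour libraries. The authors deposited counts of UMIs per gene and barcode, not normalised, written by cellranger 8.0.0 per the file headers, while the submitters' processing notes list Cell Ranger 3.1.3 and mm10. The gene annotation used for counting is not given in the sources used here. From these counts the cells were gated as described, UMIs were summed per cell group and library, and CPM and log2 ratios with a pseudocount of 1 UMI were computed. Share intervals are Clopper-Pearson, sums Poisson and ratios conditional, all exact at 95%, and 3 counts set the floor for a count of 0. Genes were named as the 25 highest and 15 lowest by the log2 ratio nearer 0, with a UMI in at least 10% of cells in each library. Between libraries they were the 15 highest and 15 lowest by the interval bound nearer 0, with at least 100 UMIs, and any gene of the 23 lists could be named. The gate, the members and the lists were chosen with earlier results of these data known. Doublets were called with Scrublet in scanpy 1.11.5 at an expected 8% and kept. For shares, cells were thinned to 2000 UMIs, which left out 1, 54 and 206 control and 0, 48 and 310 knockout cells (intestinal-like, other tumour, leukocyte reference). Pla2g2a, Fam3d and Mx1 were not found by symbol and Aldoa, on more than 1 identifier, was not read. Fam3d was counted under its other name, Oit1, so the counts and medians of the classical subtype list leave it out. The ratio code was tested on simulated data. Positions are from GENCODE M21 and promoters from RefSeq. Other tools were python 3.11.15, numpy 2.4.6, scipy 1.17.1, pandas 2.3.3, anndata 0.12.19 and matplotlib 3.10.9. Alternatives changed the gate, the cell filter, doublets, depth, the comparison cells, the averaging, the pseudocount and the minimum count. A few genes are not reported here.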

Additional observations from a re-analysis of the deposited data

Results flagged for a closer look

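For 10 of the named genes the intestinal-like cells were above the other tumour cells in 1 library and below them in the other, with both counting intervals on their own side of 0. With 1 library each, this difference was not tested. The log2 ratios in control and knockout were -6.14 and 8.16 for Gkn3, -2.04 and 3.98 for Wfdc18, -1.73 and 1.28 for Igfbp6, -2.22 and 0.41 for Dcn, and -0.66 and 1.23 for Ctla2a. In the opposite order they were 0.83 and -1.52 for Acta2, 1.91 and -0.96 for Lcn2, 4.10 and -1.49 for Jchain, 3.96 and -1.70 for Igkc, and 0.50 and -2.01 for Fgfr3. In knockout 5 cells held 99.6% of the Gkn3, 95.8% of the Igfbp6 and 86.6% of the Dcn UMIs of the intestinal-like cells, and in control 5 cells held 95.6% of the Igkc and 96.2% of the Jchain UMIs.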

How the results depend on the processing

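No paired analysis was possible because each genotype had 1 pooled library and the labels carry no replicate numbers, and for the same reason no replicate could be left out. The knockout over control ratio of shares stayed below 1 in all alternatives run, from 0.272 to 0.514: it was 0.514 with the gate at 5 UMIs, 0.272 over all cells passing the filter and 0.361 without cells carrying at least 3 UMIs of other types' markers, an alternative chosen after seeing the data. All these alternatives used the same 4 gate genes. With depth limited to the middle range of the intestinal-like cells, 184 of the 330 higher and 251 of the 460 lower genes kept their call. Of the 252 genes higher in knockout, 115 kept theirs with the gate at 5 UMIs and 104 with the gate at 20. Of the 377 lower in knockout, 259 and 205 did. Genes higher in the intestinal-like cells numbered 164 with a minimum of 100 UMIs. Lower genes numbered 185 with a pseudocount of 5, 287 with the minimum of 100 and 295 without cells carrying other types' markers. Between libraries, 395 genes were higher and 121 lower in knockout with the pseudocount of 5, and 47 and 144 with the minimum of 100, which tests fewer genes. Several ratios, knockout over control within the intestinal-like cells, changed sign. With cells carrying an Epcam UMI left out (also chosen after seeing the data), Reg3b was at -4.47, Reg1 at -3.54 and Tff2 at -2.97. Without cells carrying other types' markers the gastric list was at -0.22, Reg1 at -0.23, Mgp at -0.037, Epcam at -0.18, Dcn at -0.94, Tff2 at -4.21, Tagln at 0.29, Acta2 at 0.41, Rgs5 at 0.70, Jchain at 1.70 and Igkc at 2.01. With the gate at 20 UMIs Mgp and Igfbp6 were at -0.33, Ighm at 0.41, Rgs5 at 2.995, Jchain at 0.92 and Igkc at 2.12, and with the gate after thinning Ighm was at 0.86, Rgs5 at 2.35, Jchain at 1.54 and Igkc at 2.22. The intestinal-like over other ratio in knockout turned to -0.53 for Reg3g and -0.69 for Ly6d without Epcam cells, and to -2.57 for Ly6d without cells carrying other types' markers. The cause was not tested, and these settings changed more than the few cells that held most of these UMIs. In control and knockout 1036 and 262 intestinal-like cells remained without Epcam cells, and 800 and 164 without cells carrying other types' markers. The gate at 20 UMIs left 544 and 126, and the gate after thinning took 916 and 244, of which 772 and 191 were in the main gate. Muc5ac stayed 0.65 to 0.98 higher in knockout, the interferon list -0.80 to -1.06 in knockout intestinal-like against other cells, and H2-Aa 0.74 to 0.88. With 268 knockout cells, genes under 20 UMIs were not compared.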
